A study of Mus musculus with 35 samples.

Results

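The lysyl oxidases and the collagen hydroxylases are the enzymes that modify and cross-link collagen. The family described here has 10 genes, taken by their symbols: the 5 lysyl oxidases Lox, Loxl1, Loxl2, Loxl3 and Loxl4, the lysyl hydroxylases Plod1, Plod2 and Plod3, and the prolyl 4-hydroxylase α subunits P4ha1 and P4ha2. Each of the 10 had a row among the 55487 genes of all 4 tables, and each passed the filter on low counts in every comparison. In the endoplasmic reticulum, prolyl 4-hydroxylases hydroxylate collagen prolines, which stabilizes the triple helix, and lysyl hydroxylases hydroxylate lysines that later form cross-links. Outside the cell, lysyl oxidases convert lysines of collagen and elastin into the aldehydes from which the cross-links form. Fibroblasts are the main source of fibrillar collagen in the heart, and several of these genes, among them Lox, Plod2, P4ha1 and P4ha2, are known targets of the hypoxia-inducible factor HIF-1.

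RNA-Seq was performed on primary cardiac fibroblasts (CFs) of adult mice and on whole hearts, in a study of the micropeptide IAMP, which the mouse gene 4930523C07Rik encodes. CFs carried a control siRNA (Scrambled, si-NC in the labels) or either of 2 siRNAs to IAMP, si-IAMP-1 (siR-1) and si-IAMP-2 (siR-2), and were left untreated, given IL-17 or given TGF-β, with 3 libraries for each of the 9 groups. One treatment text, the same on all libraries, gives 24 h of siRNA and then 24 h of IL-17, and no separate times were found for the untreated or TGF-β cells. That text does not name TGF-β, which comes from the titles and from the study, where these cells are described as treated with TGF-β. Whether the cells labelled TGF-β also received IL-17 is not stated in the sources used here. Hearts came from 4 heterozygous (HET) and 4 homozygous knockout (KO) C57BL/6 mice of 8 weeks, with an IAMP frameshift made by CRISPR-Cas9 in the germ line, so that the HET controls also carried 1 mutant allele. CFs were released enzymatically, kept as the fraction adhering to collagen-coated plates, grown in medium with fetal serum and passaged before use. The labels name the TGF-β cells adult fibroblasts and the other CFs adult cardiac fibroblasts. Whether the 3 libraries of a group came from separate cultures is not stated, so the p values measure the spread between these libraries, which may be technical.

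A CF library held 104139670 to 119232309 estimated counts and a heart library 23497027 to 23857313 counts. Levels are given as CPM, the counts scaled to a common library size, and "rose" and "fell" refer to an edgeR quasi-likelihood test with a Benjamini-Hochberg adjusted p of at most 0.05. A gene was called when it also reached an absolute log2 fold change of 1 in untreated CFs, hearts and comparisons across tables, or of 0.585 within the IL-17 and TGF-β tables. The siRNAs lowered their target: 4930523C07Rik lay between 16.8 and 25.7 CPM in the 9 Scrambled libraries, between 2.37 and 4.58 CPM with siR-1 and between 1.68 and 3.72 CPM with siR-2. In hearts its level was 15.9 to 18.8 CPM in HET and 15.1 to 17.3 CPM in KO, so that the groups overlapped. A frameshift need not lower the RNA, so this level does not check the genotype. The 6 fibroblast markers summed to between 5385 and 10827 CPM in CFs and to between 449 and 686 CPM in hearts. Of the 6 cardiomyocyte markers, 5 averaged under 1 CPM in every CF group, Myh6 reaching at most 0.0983 CPM, whereas Tnnt2 reached 97.3 CPM in untreated, 75.9 CPM in IL-17 and 4.92 CPM in TGF-β cells.

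Per kilobase of annotated exon, Lox was the most abundant member in untreated Scrambled CFs, at 261 ± 11.4 CPM per kb (SD, n = 3). Loxl1 followed at 118 ± 5.57 CPM per kb, then Loxl2 at 102 ± 3.37, P4ha1 at 99.4 ± 0.831 and Plod2 at 81.8 ± 0.844. Plod3 stood at 53.3 ± 1.48, Loxl3 at 31.3 ± 1.40, Plod1 at 20.7 ± 0.744, P4ha2 at 20.5 ± 0.389 and Loxl4 at 15.4 ± 0.769 CPM per kb. Neighbours in this order had ranges that did not overlap, except for Loxl2 and P4ha1 and for Plod1 and P4ha2. With the longest annotated transcript as the length, Plod2 came to 120.4 CPM per kb, above Loxl1, whose length was the same, and P4ha2 to 41.8. The order below Lox therefore depends on the transcript model. Some members share exon bases with a gene on the opposite strand, namely Loxl3 with Htra2 over 535 bases, Plod3 with Znhit1 over 529, Plod2 with Gm38391 over 346 and Loxl2 with Gm27177 over 301. The strand setting of the counting was not stated, so reads from these stretches cannot be told apart.

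In untreated CFs, siR-1 raised the cross-linking oxidase Lox and lowered the lysyl hydroxylase Plod2, while siR-2 lowered the oxidase Loxl2. With siR-1, 6 of 10 members rose and 2 fell, beside 19.5% and 20.4% of all genes, and 2 were called, Lox higher and Plod2 lower, where 4.76% of the 19669 genes tested were called. With siR-2, 2 rose and 2 fell, beside 24.4% and 25.0% of genes, and Loxl2 alone was called, where 10.7% of genes were called. The share of members past the adjusted p, 8 of 10 with siR-1, stood beside 39.9% of all genes, and that with siR-2, 4 of 10, beside 49.3%. Over the 10 members siR-1 gave a median log2 fold change of 0.11 and siR-2 one of 0.02, beside -0.02 for all genes with either siRNA. Because each library pools many cells, fewer cells of a kind and less RNA per cell cannot be told apart.

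Markers of cell types moved with the siRNAs in the same untreated libraries. The cardiomyocyte markers summed to between 90.2 and 98.0 CPM in Scrambled, 42.1 and 47.1 CPM with siR-1 and 27.7 and 32.7 CPM with siR-2, nearly all of it Tnnt2. Macrophage markers summed to between 17.6 and 19.8 CPM, 22.4 and 22.8 CPM, and 29.4 and 30.9 CPM in the same order, and fibroblast markers, led by Col1a1, to between 5385 and 5447 CPM, 7001 and 7135 CPM, and 5569 and 5815 CPM. These groups did not overlap. Within the macrophage sum, Csf1r alone averaged 9.43, 13.3 and 21.1 CPM in that order. Col1a1 averaged 3743, 5274 and 3343 CPM, so with siR-2 it stood below Scrambled although the fibroblast sum stood above. Epicardial markers were lower with siR-2, at 48.2 to 50.2 CPM, than in Scrambled at 60.9 to 64.8 CPM or with siR-1 at 64.1 to 65.4 CPM. Mural markers were lower with both siRNAs, at 51.0 to 56.2 CPM and 44.8 to 54.9 CPM against 57.7 to 66.5 CPM, and endothelial markers were lower with siR-1, at 54.5 to 58.2 CPM against 59.4 to 64.2 CPM, and overlapped Scrambled with siR-2. Under IL-17 the cardiomyocyte sum went from between 69.7 and 76.6 CPM to between 32.0 and 35.6 CPM for siR-1 and 22.8 and 25.9 CPM for siR-2. The macrophage sum there went from between 17.9 and 20.2 CPM to between 23.9 and 24.5 CPM and 29.2 and 32.4 CPM. Csf1r led it again, averaging 9.41, 15.0 and 20.7 CPM in Scrambled, siR-1 and siR-2. Among TGF-β libraries the cardiomyocyte sum was 5.97 CPM or less in every library, and the macrophage sum was 37.4 to 44.6 CPM in Scrambled, 33.3 to 36.3 CPM with siR-1 and 39.7 to 40.9 CPM with siR-2. The part of these shifts in the members' values was not tested.

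**Figure D1:**
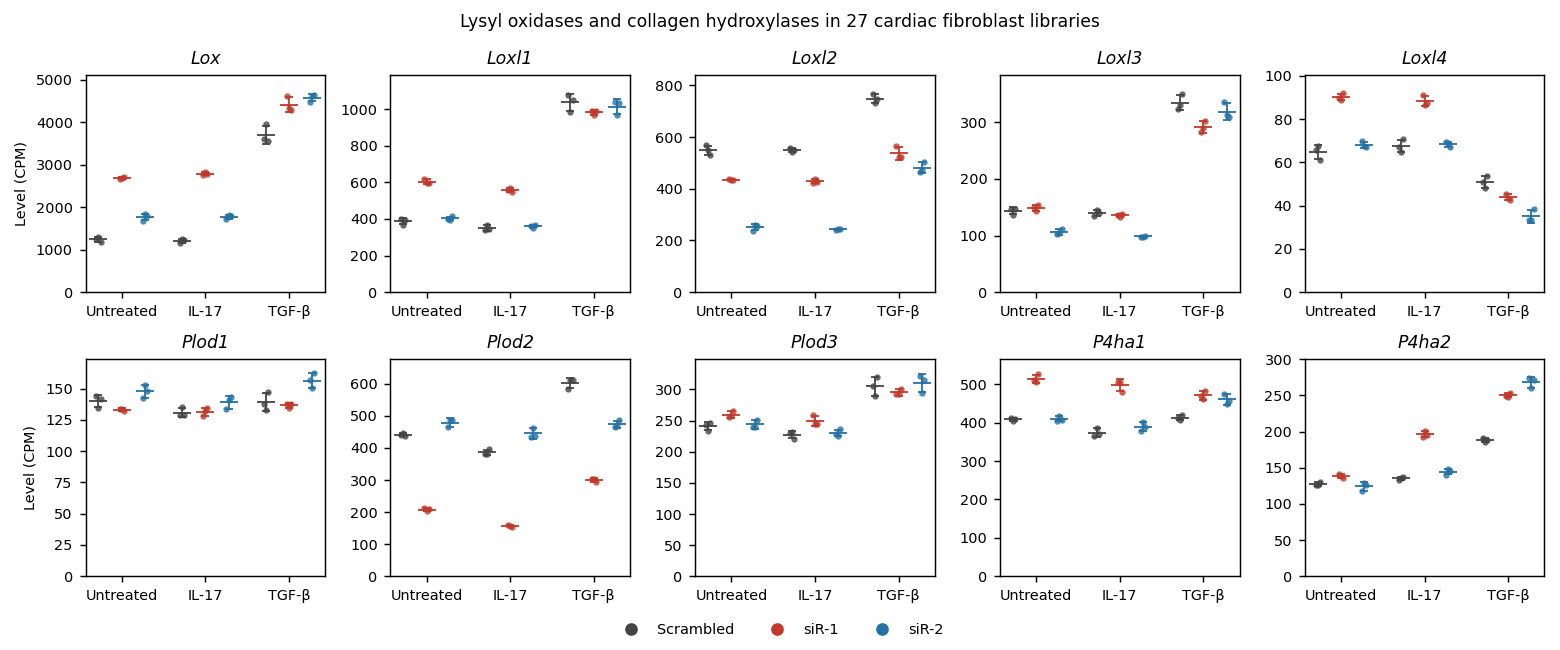
Level in CPM (y axis, from 0) of each member in the 27 CF libraries, by stimulus (x axis) and siRNA (colour), with 1 point per library and bars for mean ± SD of 3 libraries. Plod2 is low with siR-1 under every stimulus, Loxl2 is lowest with siR-2 in untreated and IL-17 cells, and Lox, Loxl1 and Loxl3 are highest in the TGF-β table.

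Lox, the founding member of the family, rose with both siRNAs in every table. Its level was 1249, 1299 and 1191 CPM in the untreated Scrambled libraries, 2658, 2681 and 2713 CPM with siR-1, and 1682, 1829 and 1794 CPM with siR-2. The 3 groups did not overlap, and siR-1 stood highest. On the log2 scale Lox rose by 1.10 ± 0.03 with siR-1 (SE, n = 3 per group, edgeR adjusted p = 4.38e-13) and by 0.49 ± 0.03 with siR-2 (edgeR adjusted p = 3.26e-09). Under IL-17 the order was the same, with 1159, 1241 and 1237 CPM in Scrambled, 2756, 2819.7 and 2791 CPM with siR-1, and 1711, 1804 and 1784 CPM with siR-2. There siR-1 raised it by 1.19 ± 0.03 and siR-2 by 0.52 ± 0.03 on the log2 scale. Among TGF-β cells, where Lox was highest, Scrambled libraries held 3604, 3946 and 3553 CPM, siR-1 libraries 4604, 4333 and 4275.5 CPM, and siR-2 libraries 4479, 4606 and 4632 CPM. Both siRNAs were still above Scrambled, by 0.25 ± 0.04 (edgeR adjusted p = 0.000214) and 0.31 ± 0.04 on the log2 scale (edgeR adjusted p = 1.90e-05), and their ranges overlapped each other.

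Loxl1, an oxidase linked to elastic fibre assembly, rose with siR-1 in untreated and IL-17 cells. In untreated cells it stood at 402, 368 and 397 CPM in Scrambled and at 619, 594 and 595 CPM with siR-1, a log2 fold change of 0.63 ± 0.04 (edgeR adjusted p = 5.80e-10). With siR-2 it stood at 399, 395 and 414 CPM and overlapped Scrambled, with a log2 difference of 0.03 ± 0.04 (edgeR adjusted p = 0.512). The direct comparison of the siRNAs gave -0.59 ± 0.04 on the log2 scale for siR-2 against siR-1 (edgeR adjusted p = 7.15e-10). Under IL-17 siR-1 again raised Loxl1, by 0.66 ± 0.03 on the log2 scale, and here it was called at the lower fold threshold. Under TGF-β the 3 groups overlapped, from 967 to 1076 CPM, and neither siRNA passed the test.

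Loxl2, an oxidase that acts on basement membrane collagen, was the member that siR-2 lowered most. Its untreated level was 567, 548 and 531 CPM in Scrambled, 438, 436 and 433 CPM with siR-1, and 238, 259 and 256 CPM with siR-2. All libraries of both siRNAs lay below all Scrambled libraries, and those of siR-2 were the lower. Its log2 fold changes were -0.34 ± 0.03 for siR-1 (edgeR adjusted p = 3.68e-07) and -1.15 ± 0.03 for siR-2 (edgeR adjusted p = 5.62e-14), and siR-2 differed from siR-1 by -0.81 ± 0.03 (edgeR adjusted p = 6.77e-12). Under IL-17 the changes were -0.37 ± 0.03 and -1.20 ± 0.03 on the log2 scale, from 559.5, 542 and 551 CPM in Scrambled to 241, 244 and 243 CPM with siR-2. With TGF-β, Scrambled libraries held 768, 731 and 746 CPM, siR-1 libraries 567, 523 and 524 CPM and siR-2 libraries 464, 473 and 505 CPM. The falls there were -0.48 ± 0.04 and -0.64 ± 0.04 on the log2 scale, and siR-2 differed from siR-1 by -0.16 ± 0.04, a difference that was lost without the first TGF-β siR-1 library (edgeR adjusted p = 0.0524).

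Loxl3 and Loxl4 were the least abundant oxidases. Loxl3 fell with siR-2 in untreated cells, from 147, 136 and 148 CPM to 103, 105 and 112 CPM, a change of -0.45 ± 0.04 on the log2 scale (edgeR adjusted p = 8.97e-08), and under IL-17, a change of -0.53 ± 0.03. With siR-1 its levels overlapped Scrambled in both tables, with edgeR adjusted p = 0.427 in untreated and 0.269 in IL-17 cells. Among TGF-β cells it fell with siR-1, a change of -0.20 ± 0.04 (edgeR adjusted p = 0.00151), and overlapped Scrambled with siR-2. Loxl4 rose with siR-1, from 65.8, 67.4 and 61.2 CPM to 89.7, 89.1 and 92.0 CPM in untreated cells, by 0.47 ± 0.04 on the log2 scale (edgeR adjusted p = 5.59e-08), and by 0.38 ± 0.04 under IL-17. In the TGF-β table its direction was the other one: 50.9, 48.3 and 53.7 CPM in Scrambled went with 45.6, 43.8 and 42.5 CPM with siR-1 and with 33.5, 33.2 and 38.5 CPM with siR-2. The log2 fold changes were -0.21 ± 0.06 (edgeR adjusted p = 0.0169) and -0.54 ± 0.06 (edgeR adjusted p = 2.84e-06). The fall with siR-1 no longer passed without Scrambled library 1 or 3, or without siR-1 library 2 or 3 (edgeR adjusted p = 0.0509 to 0.0886). Without siR-2 library 3, Loxl4 was called as well, so that 2 members in place of 1 were called for siR-2 in that table. With all libraries 7.51% of genes were called there.

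**Figure D2:**
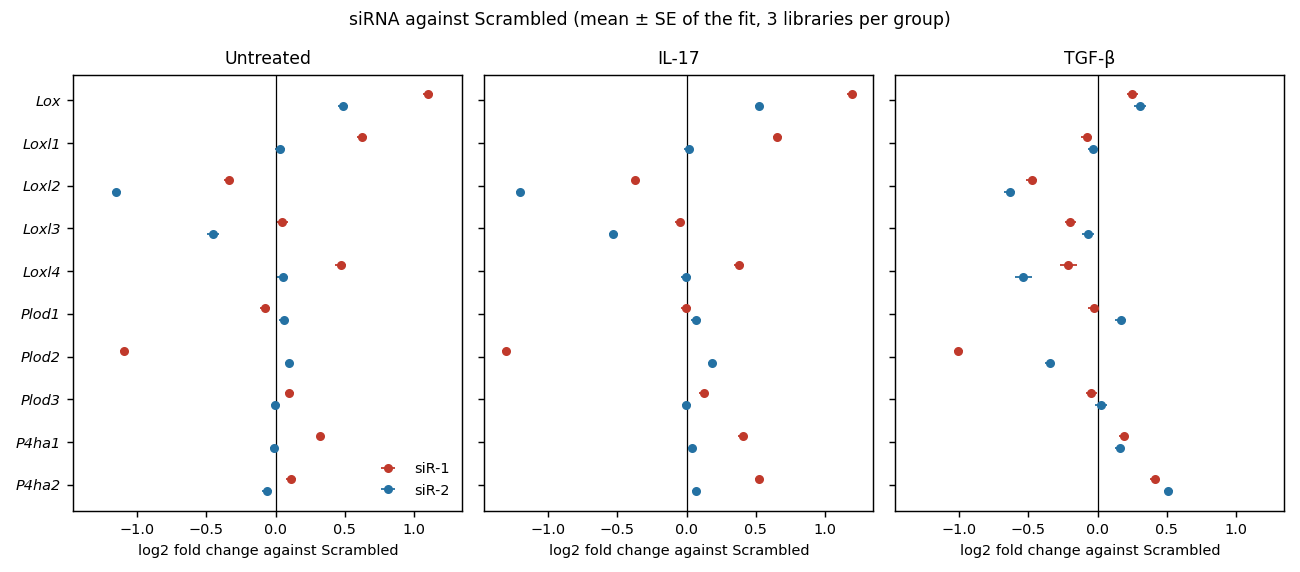
Log2 fold change against Scrambled (x axis) of the 10 members (y axis) for siR-1 and siR-2 in the untreated, IL-17 and TGF-β tables, as points with the standard error of the fit from 3 libraries per group. Plod2 lies between -1.30 and -1.01 with siR-1 in all 3 tables, and Loxl2 lies below 0 with both siRNAs in all 3.

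Plod2, which hydroxylates lysines of the collagen telopeptides, was called lower with siR-1 under every stimulus. In untreated cells it was measured at 440.0, 446 and 437 CPM in Scrambled, 211, 202 and 209 CPM with siR-1, and 464, 487 and 487 CPM with siR-2. Every siR-1 library lay far below every Scrambled library, while those of siR-2 lay slightly above. These levels gave -1.09 ± 0.03 for siR-1 (edgeR adjusted p = 6.26e-14) and 0.10 ± 0.03 for siR-2 (edgeR adjusted p = 0.00799) on the log2 scale. Under IL-17 the levels were 383, 380.0 and 395 CPM in Scrambled, 159, 158 and 155 CPM with siR-1, and 435, 464 and 438 CPM with siR-2, for log2 fold changes of -1.30 ± 0.03 and 0.19 ± 0.03. In the TGF-β table they were 585, 611 and 611 CPM, then 302, 305 and 292 CPM with siR-1 and 465, 469 and 486 CPM with siR-2, so that here Plod2 fell with both, with changes of -1.01 ± 0.03 and -0.35 ± 0.03 on the log2 scale. The siRNAs differed from each other in each table, with siR-2 above siR-1 by 1.19 ± 0.03, 1.49 ± 0.03 and 0.66 ± 0.03 on the log2 scale, and Plod2 was called each time.

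The other lysyl hydroxylases moved little. Neither Plod1 nor Plod3 had a called difference in any of the 16 comparisons, which was also so for Loxl4, P4ha1 and P4ha2. Over the 27 CF libraries Plod1 lay between 128 and 162 CPM. It was higher with siR-2 than with Scrambled in the TGF-β table, by 0.17 ± 0.04 on the log2 scale (edgeR adjusted p = 0.00398), and did not pass against Scrambled in the untreated or IL-17 table. With siR-1 in untreated cells it did pass without the second Scrambled library (-0.11, edgeR adjusted p = 0.0211). It also passed there with at least 10 counts in every library (-0.084, edgeR adjusted p = 0.0480). Under IL-17 siR-2 passed without Scrambled library 2 or siR-2 library 1 (edgeR adjusted p = 0.0465 and 0.0453). Plod3, which also glucosylates hydroxylysine, rose slightly with siR-1 in untreated cells, from 244, 233 and 246 CPM to 255, 257 and 265 CPM, by 0.10 ± 0.03 (edgeR adjusted p = 0.0236), and in IL-17 cells by 0.12 ± 0.03 (edgeR adjusted p = 0.00362). The untreated change no longer passed without the first or second Scrambled library or the third siR-1 library (edgeR adjusted p = 0.0530 to 0.1104). With siR-2 Plod3 overlapped Scrambled under every stimulus.

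P4ha1 and P4ha2 carry the catalytic site of the prolyl 4-hydroxylase, an enzyme completed by the β subunit P4hb. Both rose with siR-1 under every stimulus, and the stretches of 250 bases just before their RefSeq starts (GRCm38.p6) are shown because both are known HIF-1 targets. That of Plod1 is shown too, which did not pass with siR-1 in any table with all libraries and the main filter. Capitals mark the letters ACGTG or GCGTG on either strand, the cores of hypoxia response elements. The first of these is also part of the E-box CACGTG.
P4ha1, chr10:59323046-59323295, + strand: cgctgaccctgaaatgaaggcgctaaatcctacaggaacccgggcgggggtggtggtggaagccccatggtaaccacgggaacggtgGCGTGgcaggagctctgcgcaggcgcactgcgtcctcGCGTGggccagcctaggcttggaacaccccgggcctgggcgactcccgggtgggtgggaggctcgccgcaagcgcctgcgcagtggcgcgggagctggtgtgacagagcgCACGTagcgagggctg
P4ha2, chr11:54100674-54100923, + strand: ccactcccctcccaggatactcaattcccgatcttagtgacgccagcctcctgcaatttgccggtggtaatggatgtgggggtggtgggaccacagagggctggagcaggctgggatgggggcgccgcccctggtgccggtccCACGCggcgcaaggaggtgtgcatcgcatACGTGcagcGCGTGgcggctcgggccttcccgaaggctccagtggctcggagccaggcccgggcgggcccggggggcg
Plod1, chr4:147936777-147937026, - strand: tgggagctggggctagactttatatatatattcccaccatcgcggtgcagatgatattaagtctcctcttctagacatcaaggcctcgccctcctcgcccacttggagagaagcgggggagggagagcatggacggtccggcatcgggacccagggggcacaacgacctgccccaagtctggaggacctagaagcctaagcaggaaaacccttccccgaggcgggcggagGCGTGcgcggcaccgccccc
The windows held 3 such cores for P4ha1, 3 for P4ha2 and 1 for Plod1. In GENCODE vM21 P4ha2 starts further upstream, at position 54100095, so its window lies inside the annotated gene, though outside annotated exons. Of the other 2 members with a RefSeq window, Plod3 had 4 cores, in a window that shares 208 bases with exons of Znhit1, and Loxl4 had 1. With siR-1 in untreated cells Plod3 rose by 0.10 and Loxl4 by 0.47 on the log2 scale. At least 1 core stood in 38.6% of all 32851 promoter windows of that length, so these are matches of letters and not mapped sites. The share of windows with 3 or more cores was not computed, so the counts cannot be set beside a background. The SMAD box GTCTG, sought on either strand, was found once before Plod1 and once before Loxl4 and not in the P4ha1, P4ha2 or Plod3 window, and 42.2% of all windows held it. RefSeq windows were matched for 5 of the 10 members.

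P4ha1 rose from 412, 405 and 409.8 CPM in untreated Scrambled to 511, 505 and 527 CPM with siR-1, by 0.32 ± 0.03 on the log2 scale (edgeR adjusted p = 4.83e-08). With siR-2 it stood at 406, 418 and 408 CPM, which overlapped Scrambled, with a log2 difference of -0.01 ± 0.03 (edgeR adjusted p = 0.721). Under IL-17 only siR-1 of the 2 siRNAs passed, at 0.40 ± 0.03, and in the TGF-β table both did, at 0.19 ± 0.03 and 0.16 ± 0.03. P4ha2 rose with siR-1 in every table. In untreated cells it went from 126.4, 126.3 and 131 CPM to 142, 139 and 136 CPM with siR-1, by 0.11 ± 0.04 on the log2 scale (edgeR adjusted p = 0.0189), a difference that no longer passed without the first or second library of either group (edgeR adjusted p = 0.0538 to 0.0871). Under IL-17 it went from 133, 136 and 138 CPM to 192, 201 and 196 CPM with siR-1, by 0.52 ± 0.03, while 140.4, 148 and 145 CPM with siR-2 did not pass (edgeR adjusted p = 0.0550). In the TGF-β table Scrambled at 190.4, 186 and 189 CPM stood below siR-1 at 249, 248 and 254 CPM and siR-2 at 274, 259.5 and 272 CPM, by 0.41 ± 0.03 and 0.51 ± 0.03 on the log2 scale.

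Under IL-17, 8 of 10 members passed the adjusted p with siR-1, beside 42.3% of genes, and 4 of 10 with siR-2, beside 50.6%. Called were Lox and Loxl1 higher and Plod2 lower with siR-1, where 13.5% of genes were called, and Loxl2 lower with siR-2, where 21.7% were called. For TGF-β cells, 7 of 10 passed with each siRNA, beside 23.1% of genes for siR-1 and 29.9% for siR-2. Plod2 was called lower with siR-1, where 4.36% of genes were called, and Loxl2 lower with siR-2, where 7.51% were. Between the 2 siRNAs, in untreated cells all 10 members differed between siR-2 and siR-1, beside 45.5% of genes, with Plod1 and Plod2 the higher in siR-2 and the other 8 lower, and Plod2 alone was called, where 6.65% of genes were. The difference of Plod3 (-0.10 ± 0.03, edgeR adjusted p = 0.0185) no longer passed without siR-1 library 3 or siR-2 library 1 or 2 (edgeR adjusted p = 0.0639 to 0.0927). Under IL-17, 9 of 10 differed, beside 46.2% of genes, and Plod2 was called higher and Lox, Loxl1 and Loxl2 lower, where 15.7% of genes were called. Between the TGF-β groups, 6 of 10 differed, beside 24.0%, and Plod2 was called, where 3.96% of genes were. There the small differences of Loxl3 and P4ha2, 0.13 ± 0.04 (edgeR adjusted p = 0.0270) and 0.10 ± 0.03 (edgeR adjusted p = 0.0283), no longer passed in several fits that left out 1 library, without the first or second siR-1 or first siR-2 library for both genes and, for P4ha2, also without the third library of either.

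Scrambled cells given IL-17 differed little in the family from untreated Scrambled cells. These cells stand in different tables, so stimulus and table cannot be told apart. In Scrambled cells none of the 10 members was called against untreated cells by edgeR, where 1.39% of 21219 genes were called, and DESeq2 called none either. At an unadjusted p under 0.05, 6 members differed, beside 23.6% of genes, and 3 passed the adjustment, Loxl1, Plod2 and P4ha1, beside 13.6% of genes. All 3 fell, with changes of -0.19 ± 0.03 for Plod2 (edgeR adjusted p = 1.12e-05), -0.15 ± 0.03 for Loxl1 (edgeR adjusted p = 0.00334) and -0.13 ± 0.03 for P4ha1 on the log2 scale (edgeR adjusted p = 0.00145). In the same comparison all 10 IL-17 response genes were called higher, with a median log2 fold change of 4.25.

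Scrambled cells labelled TGF-β had more RNA of most members than untreated Scrambled cells. Lox, Loxl1 and Loxl3 were called higher, 3 of 10 members where 12.5% of 21508 genes were called higher and 21.5% in either direction. Lox differed by 1.57 ± 0.04 on the log2 scale (edgeR adjusted p = 6.37e-20), Loxl1 by 1.41 ± 0.04, from 402, 368 and 397 CPM to 1076, 987 and 1052 CPM, and Loxl3 by 1.22 ± 0.04, from 147, 136 and 148 CPM to 323, 331 and 350.0 CPM. Smaller rises were measured for P4ha2 (0.56 ± 0.03), Plod2 (0.45 ± 0.03), Loxl2 (0.44 ± 0.04) and Plod3 (0.34 ± 0.04). Loxl4 was the one member that fell, a change of -0.35 ± 0.05 (edgeR adjusted p = 2.70e-06). Plod1 at -0.01 ± 0.04 and P4ha1 at 0.01 ± 0.03 on the log2 scale did not pass. In all, 8 of 10 members passed, beside 57.3% of genes, and the median over the members was 0.44 on the log2 scale, beside 0.03 for all genes.

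The TGF-β and untreated cells stand in different tables, so stimulus and table cannot be told apart. Of the 10 TGF-β response genes, 5 were called higher, among them Acta2 at 1.55 ± 0.04 and Ltbp2 at 4.82 ± 0.06 on the log2 scale. Of the 10 IL-17 response genes, 9 were called higher too, with a median of 4.96 over the 10, and Lcn2 at 10.14 ± 0.27. The exception was Nfkbiz, at 0.56 ± 0.05 for TGF-β and 2.58 ± 0.03 for IL-17 on the log2 scale. IL-17 in these cells and another batch of cells cannot be told apart from TGF-β here, so each TGF-β value compares the libraries so labelled with the untreated ones. Endothelial markers summed to between 98.6 and 110.2 CPM in the TGF-β table and to between 54.5 and 66.0 CPM in the untreated one, and macrophage markers to between 33.3 and 44.6 CPM against 17.6 to 30.9 CPM. Fibroblast markers summed to between 9534 and 10827 CPM against 5385 to 7135 CPM, but single markers went both ways. Col1a1 (6759 to 7590 against 3241 to 5321 CPM) and Dcn (2187 to 2787 against 528 to 1117 CPM) were higher in the TGF-β table, Pdgfra (119 to 193 against 343 to 477 CPM), Tcf21 (86.0 to 121 against 160.1 to 199 CPM) and Ddr2 (184 to 231 against 477 to 578 CPM) were lower, and Lum overlapped. Cardiomyocyte markers summed to between 3.33 and 5.97 CPM against 27.7 to 98.0 CPM, epicardial markers to between 12.9 and 29.4 CPM against 48.2 to 65.4 CPM, and mural markers to between 34.4 and 45.7 CPM against 44.8 to 66.5 CPM. Within these sums, too, single markers went the other way. Kdr (endothelial, 2.03 to 2.98 against 3.35 to 6.97 CPM) and C1qa (macrophage, 0.287 to 0.915 against 0.975 to 2.47 CPM) were lower. Rgs5 (mural, 6.25 to 9.03 against 0.900 to 1.76 CPM) and Wt1 (epicardial, 0.696 to 1.84 against 0 to 0.596 CPM) were higher. Mitochondrial genes took 2.87 to 3.67% of the counts against 2.27 to 2.63%. The part of these differences in the members' values was not tested.

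**Figure D3:**
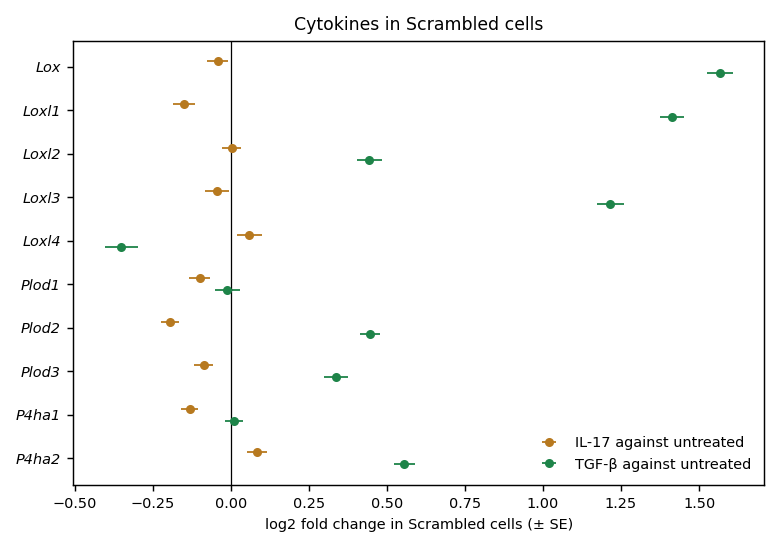
Log2 fold change in Scrambled cells (x axis) of the 10 members (y axis) for IL-17 and for TGF-β against untreated cells, as points with the standard error of the fit from 3 libraries per group. The IL-17 points lie between -0.19 and 0.08, and the TGF-β points of Lox, Loxl1 and Loxl3 lie above 1.

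Whether the siRNA effect differed with the stimulus was tested as an interaction over 18 libraries, in which stimulus and table cannot be told apart. For IL-17, 2 members passed with siR-1, P4ha2 with a difference of 0.41 ± 0.05 (edgeR adjusted p = 2.92e-06) and Plod2 with -0.21 ± 0.04 on the log2 scale (edgeR adjusted p = 0.00276), where 2.13% of genes passed. With siR-2 none passed, by edgeR or by DESeq2, where 1.89% of genes did, although 2 members had an unadjusted p under 0.05, beside 9.68% of genes. For TGF-β, 6 of 10 passed with siR-1, beside 19.6% of genes, and 7 of 10 with siR-2, beside 30.2%. With siR-1 the effect was lower in the TGF-β table for 4 of the 5 oxidases, with differences of -0.85 ± 0.06 for Lox, -0.71 ± 0.05 for Loxl1, -0.69 ± 0.07 for Loxl4 and -0.25 ± 0.06 for Loxl3 on the log2 scale. For Loxl2 the difference of -0.14 ± 0.06 did not pass (edgeR adjusted p = 0.0803), but it passed in a fit of all 27 CF libraries (edgeR adjusted p = 0.0417) and without the first TGF-β siR-1 library (edgeR adjusted p = 0.0244). With siR-2 it was higher for Loxl2 (0.49 ± 0.06), Loxl3 (0.36 ± 0.06) and P4ha2 (0.55 ± 0.05) and lower for Loxl4 (-0.61 ± 0.07) and Plod2 (-0.47 ± 0.04). The fall of Plod2 with siR-1 did not differ detectably between the TGF-β and untreated tables (0.08 ± 0.04, edgeR adjusted p = 0.233). None of the 40 interactions of the members reached 1 on the log2 scale, so none was called by edgeR, or by DESeq2, where 0.189% of genes were called for IL-17 with siR-1, 0.165% with siR-2, 2.36% for TGF-β with siR-1 and 5.09% with siR-2. The knockdown of 4930523C07Rik itself was weaker in the TGF-β table, by 0.73 ± 0.15 with siR-1 (edgeR adjusted p = 0.00113) and 1.03 ± 0.16 with siR-2 (edgeR adjusted p = 1.70e-05) on the log2 scale, and its part in these differences was not tested.

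The genes that work alongside the members were described by lists, chosen with earlier results of these data known. Over all genes tested, 20.3% rose and 21.9% fell with siR-1 under IL-17 and 25.0% rose and 25.6% fell with siR-2, and among TGF-β libraries the shares were 11.7% and 11.4% for siR-1 and 15.1% and 14.8% for siR-2. For the stimuli in Scrambled cells, 6.61% rose and 6.96% fell with IL-17 and 29.3% rose and 28.0% fell with TGF-β. The rises and falls of each list are to be read beside these shares. Genes of a list that were called stand beside smaller shares, given here as called higher and lower over all genes. Under IL-17 these were 5.58% and 7.97% for siR-1 and 8.06% and 13.7% for siR-2. In the TGF-β table they were 2.45% and 1.91% for siR-1 and 2.07% and 5.44% for siR-2. In untreated cells they were 2.15% and 2.61%, and 3.42% and 7.23%. For the stimuli they were 1.09% and 0.306% with IL-17 and 12.5% and 9.07% with TGF-β. Of 27 other collagen maturation genes, 13 rose and 7 fell with siR-1 in untreated cells, beside 19.5% and 20.4% of all genes, and 5 rose and 13 fell with siR-2, beside 24.4% and 25.0%. With siR-1, 1 was called lower, beside 2.61% of genes, and with siR-2, 4 were, beside 7.23%. Their median log2 fold changes were 0.19 and -0.13, beside -0.02 for all genes in each case. Called lower with siR-2 were another prolyl 4-hydroxylase α subunit, P4ha3, from 20.1, 18.5 and 20.2 CPM to 9.37, 8.99 and 9.73 CPM (-1.08 ± 0.07 on the log2 scale), the prolyl 3-hydroxylase P3h2 (-1.19 ± 0.10), and the procollagen N-proteinases Adamts3 (-1.46 ± 0.26) and Adamts14 (-2.53 ± 0.09). Adamts14 was also the gene called lower with siR-1, at -1.43 ± 0.09. P4hb, the shared β subunit, rose with both siRNAs, from 1194, 1169.8 and 1195 CPM to 1759, 1745 and 1746 CPM with siR-1 and 1523, 1528 and 1519.5 CPM with siR-2. Serpinh1, the collagen chaperone HSP47, rose with siR-1 (0.23 ± 0.03) and fell with siR-2 (-0.14 ± 0.03) on the log2 scale.

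Under IL-17 the same list had 15 rises and 5 falls with siR-1 and 5 rises and 13 falls with siR-2. P4hb (0.61 ± 0.02), the chaperone Fkbp10 (0.68 ± 0.03), the transglutaminase Tgm2 (0.73 ± 0.05) and the proteinase Tll1 (0.79 ± 0.08) were called higher with siR-1, and P3h2 (-0.76 ± 0.07) and Adamts14 (-0.60 ± 0.06) lower. With siR-2, Tgm2 was called higher (0.80 ± 0.05), and P4ha3 (-0.94 ± 0.08), P3h2 (-1.34 ± 0.07), Adamts3 (-1.19 ± 0.32), Adamts14 (-1.97 ± 0.07), Tll1 (-1.07 ± 0.08) and the barely detected Tll2 were called lower. Serpinh1 changed by 0.26 ± 0.03 with siR-1 and -0.13 ± 0.03 with siR-2. In the TGF-β table, with 26 genes tested, 3 rose and 10 fell with siR-1 and 8 rose and 7 fell with siR-2, Tll1 was called higher with siR-1 (0.66 ± 0.11), and P4ha3 (-0.79 ± 0.07), P3h2 (-0.75 ± 0.09) and Tgm2 (-0.60 ± 0.04) lower with siR-2. There P4hb rose with both, by 0.09 ± 0.03 and 0.24 ± 0.03, and Serpinh1 passed with neither. Against untreated cells, Scrambled cells labelled TGF-β had 19 of the 27 genes higher and 3 lower, with a median of 0.59 on the log2 scale. Called higher were the procollagen C-proteinase Bmp1 (1.19 ± 0.04), P3h1 (1.01 ± 0.04), Fkbp7 (1.47 ± 0.06), Creb3l1 (1.56 ± 0.05), Tgm2 (2.24 ± 0.05) and the little expressed Colgalt2 (1.67 ± 0.66), while Tll1 was called lower (-1.44 ± 0.10). For IL-17 in Scrambled cells 4 rose and 5 fell, and Creb3l1 was called higher (1.03 ± 0.05). P4ha3 itself was at 0.50 ± 0.06 for TGF-β and -0.22 ± 0.07 for IL-17, and with siR-1 at 0.00 ± 0.06 in untreated, -0.14 ± 0.08 in IL-17 and -0.40 ± 0.07 on the log2 scale in TGF-β cells, of which the untreated and IL-17 values did not pass. For TGF-β and IL-17 P4hb did not pass (-0.03 ± 0.03 and -0.06 ± 0.02), and Serpinh1 was at 0.10 ± 0.03 and -0.10 ± 0.03.

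**Figure D4:**
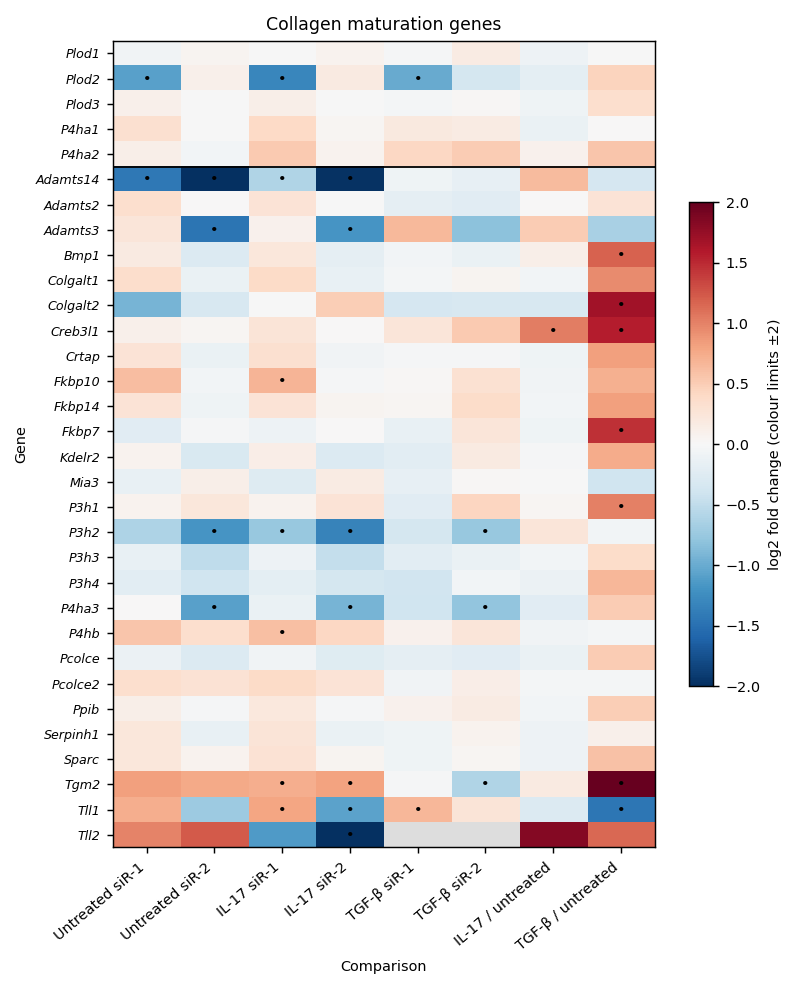
Log2 fold change (colour, limited to ±2) of 32 collagen maturation genes (rows, the 5 hydroxylase members above the line) in 6 siRNA and 2 stimulus comparisons (columns), with a dot where a gene was called and grey where it was not tested. Plod2 is dotted in the 3 siR-1 columns, P4ha3 in the 3 siR-2 columns, and 7 of the genes below the line are dotted in the TGF-β column.

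Among 16 substrates and partners of the lysyl oxidases, 8 rose and 5 fell with siR-1 in untreated cells, beside 19.5% and 20.4% of all genes, and 5 rose and 10 fell with siR-2, beside 24.4% and 25.0%. Called with siR-2 were the type III collagen chain Col3a1, higher by 1.45 ± 0.04 on the log2 scale, and fibronectin Fn1, at -1.31 ± 0.04, while none was called with siR-1. Col3a1 went from 2932, 2809.7 and 3041 CPM in Scrambled to 8128, 8116 and 8139 CPM with siR-2. Under IL-17, Col3a1 was called higher with both siRNAs (0.96 ± 0.03 and 1.56 ± 0.03), Col5a2 higher with siR-1 (0.82 ± 0.02), and Fn1, Postn, Eln, Ltbp4 and Fmod lower with siR-2, Eln at -0.78 ± 0.04. In the TGF-β table Col3a1 was called higher with siR-1 (0.65 ± 0.04), Fmod, a small proteoglycan that binds collagen, lower with both (-0.59 ± 0.04 and -0.95 ± 0.04), and Eln and Ltbp4 lower with siR-2. In Scrambled cells TGF-β gave 7 rises and 8 falls in this list, with Fbln5 (1.79 ± 0.04) and Fmod (1.53 ± 0.05) called higher and the copper transporter Atp7a called lower (-2.04 ± 0.18). IL-17 gave 4 falls and no rise past the adjusted p, and no call.

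Of 14 HIF-1 targets outside the family, 7 rose and 3 fell with siR-1 in untreated cells, beside 19.5% and 20.4% of all genes, and 10 rose and none fell with siR-2, beside 24.4% and 25.0%. Bnip3, a mitophagy receptor, was called with siR-2, at 1.39 ± 0.06 on the log2 scale. Under IL-17, 10 rose with each siRNA, beside 20.3% of genes for siR-1 and 25.0% for siR-2, and Bnip3 (0.64 ± 0.06 and 1.37 ± 0.06) and Ndrg1 (1.20 ± 0.06 and 0.97 ± 0.06) were called with both, Car9 with siR-1, and Adm, Egln3, Pdk1 and the glucose transporter Slc2a1 (0.90 ± 0.03) with siR-2, all higher. None fell with siR-2 and 1 fell with siR-1. With TGF-β, 10 rose with siR-1, beside 11.7% of genes, and 8 with siR-2, beside 15.1%, 1 fell with each, and Egln3 and Bnip3 were called with siR-1. For TGF-β against untreated Scrambled cells, 3 rose and 7 fell, with Ndrg1 called higher (2.33 ± 0.06) and Ankrd37, Egln3 and the glycolytic genes Ldha (-1.17 ± 0.03) and Pgk1 (-1.02 ± 0.03) called lower. For IL-17, 4 rose and 4 fell, and Ankrd37 was called lower. In untreated cells siR-1 gave the list a median of 0.12 and siR-2 one of 0.43 on the log2 scale, beside -0.02 for all genes with either. The members named above as HIF-1 targets were at 1.10 and 0.49 for Lox, 0.32 and -0.01 for P4ha1, 0.11 and -0.06 for P4ha2 and -1.09 and 0.10 for Plod2, of which P4ha1 and P4ha2 did not pass with siR-2. Those names were examples and not a full list. Of the members not named, Loxl1, Loxl4 and Plod3 rose with siR-1, Loxl2 fell with both siRNAs, Loxl3 fell with siR-2 and Plod1 passed with neither.

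The genes whose mean log2 CPM over the 9 CF groups ran most like Lox, out of 13330 genes, were Rhbdd1 (Pearson's r = 0.9951), Gaa (0.9939) and Syvn1 (0.9935). Those most like Loxl2 were Gm47939 (0.9896), Gm14150 (0.9889) and Obsl1 (0.9861), of which Gm47939 averaged 1.22 CPM in untreated Scrambled cells. Those most like Plod2 were Rala (0.9829), Grhpr (0.9748) and Lxn (0.9693). These are descriptions over 9 groups that share siRNAs and tables. Ranking by Spearman's rho gave none of the same genes for Lox or Loxl2.

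In whole hearts, where cardiomyocyte RNA dominates, the family was low and its order differed from that in CFs. Per kilobase, HET hearts held most Loxl1, at 16.7 ± 2.05 CPM per kb (SD, n = 4), then Plod1 at 13.8 ± 0.579 and P4ha1 at 9.71 ± 1.56, whereas Lox stood at 1.91 ± 0.463 and Loxl4 at 0.124 ± 0.0233 CPM per kb. No member was called between KO and HET by edgeR or by DESeq2, 1 had an unadjusted p under 0.05, and over all 16675 genes edgeR called 0.0% (601 genes, 3.6%, had an unadjusted p under 0.05) and DESeq2 called 2 genes. The smallest unadjusted p was that of Plod2. It measured 16.6, 17.9, 17.9 and 17.7 CPM in HET and 20.4, 21.9, 18.9 and 19.1 CPM in KO, so that all KO hearts lay above all HET hearts, as was so in either direction for 2.37% of genes. The log2 difference was 0.19 ± 0.06 (unadjusted p = 0.0119, edgeR adjusted p = 1.00). For the other 9 members HET and KO overlapped. Lox was at 8.78, 6.26, 11.5 and 10.0 CPM in HET and 10.4, 13.0, 9.15 and 11.4 CPM in KO, a log2 difference of 0.27 ± 0.17, and Loxl2 at 11.2, 9.48, 11.9 and 13.3 CPM against 10.1, 10.8, 9.40 and 11.0 CPM, a difference of -0.15 ± 0.10. Over the 10 members the log2 differences ran from -0.15 to 0.27, with a median of 0.00098. Of the collagen maturation list, the substrate list and the HIF-1 list no gene passed in hearts.

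**Figure D5:**
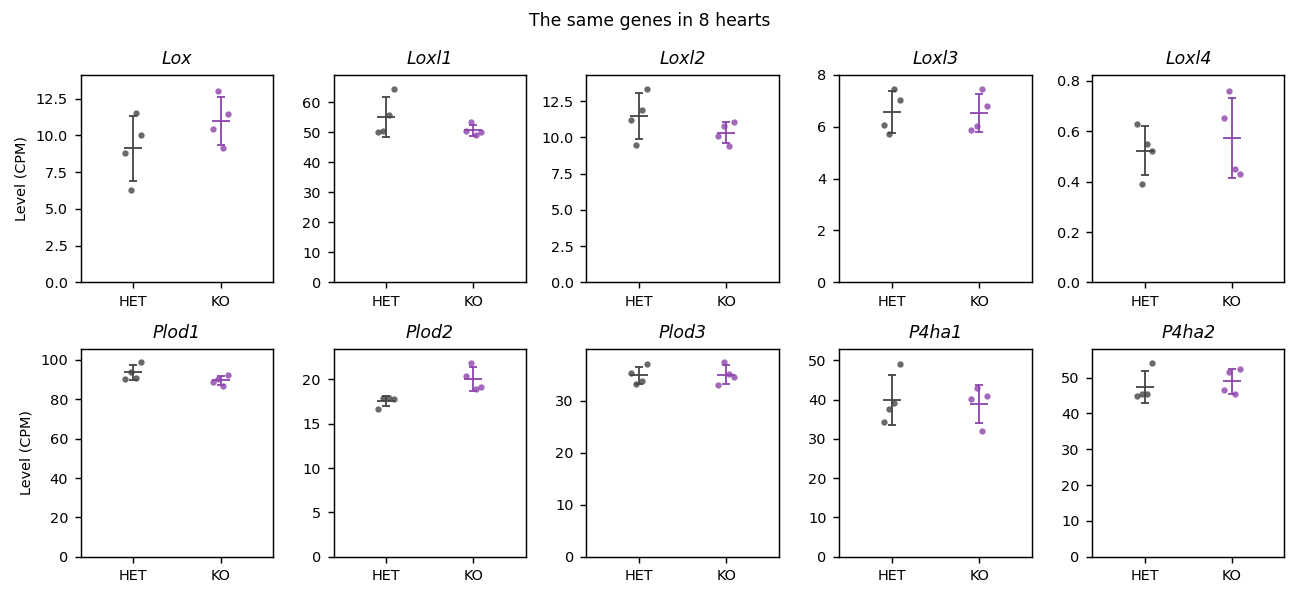
Level in CPM (y axis, from 0) of each member in the 4 HET and 4 KO hearts (x axis), with 1 point per heart and bars for mean ± SD. The groups overlap for 9 members, and for Plod2 the KO hearts, from 18.9 to 21.9 CPM, lie above the HET hearts, from 16.6 to 17.9 CPM.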

How the data were processed

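RNA-Seq of 27 CF libraries and 8 hearts was analysed from 4 tables, with all columns used. The authors enriched mRNA with oligo(dT), trimmed reads with Cutadapt, aligned them to GRCm38 with HISAT2 and quantified genes with StringTie. The deposited CF values are whole numbers treated as estimated counts, since among genes seen in 1 untreated library the commonest value was 6 (32.75% of 1875 genes), and the deposited heart values are counts, for which it was 1. Neither was normalized. Annotation release, strand setting and the step to whole numbers are not given in the sources used here.

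The estimated counts were used as deposited in edgeR 4.0.16 (R 4.3.3) with TMM, filterByExpr and a robust quasi-likelihood fit over all libraries of a table. Comparisons across tables used 18 libraries in 6 groups. P values were adjusted by Benjamini-Hochberg over all genes tested. The fold thresholds are the study's for untreated and IL-17 cells. That of 0.585 was also used for TGF-β and that of 1 for hearts and comparisons across tables. CF levels were scaled by TMM over 27 libraries, and exon lengths, gene positions and overlaps come from GENCODE vM21. On simulated counts with 200 changed genes the test was checked before use. DESeq2 1.42.0, other size factors, other filters, the other fold threshold, a replicate block, fits of other library sets, counts divided by 6, and fits leaving out each library were alternatives. No 2 libraries of a group agreed within sampling noise (chi-square per degree of freedom 2.02 to 5.65 in CFs and 4.91 to 13.6 in hearts). A heart column gives the genotype but no animal number.

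The text names the 10 members in every comparison, list genes where called (with P4ha3, P4hb and Serpinh1 in each CF comparison) and the 3 genes most like Lox, Loxl2 and Plod2 by Pearson's r among genes of at least 1 CPM. Members and lists were chosen with earlier results of these data known.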

Additional observations from a re-analysis of the deposited data

Results flagged for a closer look

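The effect of an siRNA on a member differed between stimulated and untreated cells, at an edgeR adjusted p of at most 0.05 for the interaction, in 15 of 40 tests, 2 for IL-17 and 13 for TGF-β. These counts are to be read beside the share of all genes that passed the same test. That share was 30.2% (siR-2) or 19.6% (siR-1) for TGF-β, so many genes outside the family passed too. It was only 1.89% (siR-2) or 2.13% (siR-1) for IL-17. For IL-17 with siR-1 the differences were 0.41 for P4ha2 and -0.21 for Plod2 on the log2 scale. For TGF-β with siR-1 they were -0.85 for Lox, -0.71 for Loxl1, -0.69 for Loxl4, -0.25 for Loxl3, -0.14 for P4ha1 and 0.29 for P4ha2. For TGF-β with siR-2 they were 0.55 for P4ha2, 0.49 for Loxl2, 0.36 for Loxl3, 0.15 for P4ha1, -0.20 for Lox, -0.47 for Plod2 and -0.61 for Loxl4. That of Lox with siR-2 no longer passed without the third untreated Scrambled library or the first TGF-β siR-2 library (edgeR adjusted p = 0.0738 and 0.0532). That of P4ha1 with siR-1 no longer passed without library 1 or 3 of untreated Scrambled or untreated siR-1, the second TGF-β siR-1 library or the third TGF-β siR-2 library (edgeR adjusted p = 0.0510 to 0.115). Stimulus and table cannot be told apart.

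In HET hearts a single animal stood apart for 2 members. P4ha2 was at 54.2 CPM in 1 HET heart and at 45.0 to 45.4 CPM in the other 3, and Plod2 was at 16.6 CPM in another and at 17.7 to 17.9 CPM in the other 3. Of 20 groups looked at in this way, chance alone flags about 1 in 20.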

How the results depend on the processing

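Each member's result in the 16 comparisons was recomputed with DESeq2, other size factors, other filters, fits of other library sets, counts divided by 6 and a replicate block, and without each library in turn. Of 125 counts of called members under the alternatives that kept all libraries, 119 stayed within 1.5 times the value reported. The other 6 came from exchanging the fold thresholds: the count became 4 for siR-2 against siR-1 in untreated cells and 1 under IL-17, 0 for siR-2 against Scrambled and 0 against siR-1 in the TGF-β table, and 3 and 1 for the interactions of TGF-β with siR-1 and siR-2. Without 1 library the counts stayed as reported, except that siR-2 against Scrambled in the TGF-β table ranged from 1 to 2. With all libraries 7.51% of genes were called in that comparison.

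For single members, 1059 values kept their direction and side of the threshold, 14 came to pass, and 1 no longer passed, P4ha2 in siR-2 against siR-1 in the TGF-β table without a filter. The sign changed for 15 values, of results near 0 that passed in no fit. With DESeq2, other size factors and no filter, Plod3 with siR-2 was at 0.0052, 0.0052 and 0.0092 on the log2 scale in untreated and at 0.0050, 0.0050 and 0.0063 in IL-17 cells, and Loxl4 with siR-2 at 0.0029, 0.0029 and 0.0042 in IL-17 cells. With the first 2 of these the Plod3 interaction of IL-17 with siR-2 was -0.0024 and -0.0024. Plod1 with siR-1 under IL-17 was 0.0049 in a fit of those groups alone, and Plod1 for TGF-β was 0.0086 with at least 10 counts in every library. The Plod3 interaction of TGF-β with siR-2 was -0.0022 with that filter and -0.0017 with counts divided by 6.

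Leaving out 1 library brought 13 values past the adjusted p, and 31 no longer passed it. It also changed the sign of 19 results near 0 that passed in no fit. With siR-2 in untreated cells Loxl1 ranged from -0.0086 to 0.053 and Plod3 from -0.028 to 0.017. Under IL-17 Plod1 with siR-1 ranged from -0.023 to 0.020, and with siR-2 Loxl1 from -0.011 to 0.052, Loxl4 from -0.031 to 0.024 and Plod3 from -0.029 to 0.013. In the TGF-β table Plod1 with siR-1 ranged from -0.054 to 0.014 and Plod3 with siR-2 from -0.0099 to 0.064. In hearts Loxl3 ranged from -0.074 to 0.062, Loxl4 from -0.036 to 0.24, Plod3 from -0.027 to 0.037 and P4ha1 from -0.10 to 0.076. For the stimuli in Scrambled cells Loxl2 with IL-17 ranged from -0.019 to 0.027, Plod1 with TGF-β from -0.050 to 0.024 and P4ha1 with TGF-β from -0.0065 to 0.022. For the interactions with siR-2, Loxl1 with IL-17 ranged from -0.030 to 0.033, Plod1 with IL-17 from -0.0076 to 0.048, Plod3 with IL-17 from -0.010 to 0.036 and Plod3 with TGF-β from -0.029 to 0.081. Their cause was not tested.

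The replicate numbers did not pair the samples: same-numbered libraries of different groups correlated in their deviations from -0.0779 to 0.112 in untreated, -0.0206 to 0.0473 in IL-17 and -0.190 to 0.0730 in TGF-β cells. With a replicate block no count of called members changed, and 3 more members came under the threshold, P4ha2 with siR-2 under IL-17 (0.07, edgeR adjusted p = 0.0423), Plod1 for IL-17 (-0.10, edgeR adjusted p = 0.0491) and Plod3 for the interaction of TGF-β with siR-1 (-0.15, edgeR adjusted p = 0.0201). No paired analysis was possible for hearts because their columns carry no replicate numbers. Depth limits Loxl4 most in hearts, at 0.391 to 0.759 CPM.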
